A study of Mus musculus with 21 samples.

Results

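A set of 10 genes of bile acid handling were followed through the peak lists of a study on adult mouse hepatocytes: Cyp7a1, Cyp8b1 and Cyp27a1 for synthesis, Baat and Slc27a5 for conjugation, Abcb11, Abcc2 and Abcb4 for export into bile, and Slc10a1 and Slco1b2 for uptake from blood. They are 10 of 21887 protein-coding genes in the RefSeq annotation, and each was examined over its gene body plus 25 kb on each side. The study mapped protein-bound or histone-marked DNA by chromatin immunoprecipitation with sequencing (ChIP-seq) in primary hepatocytes from perfused livers of mice at postnatal day 90, on a mixed C57/B6 and 129 background. WT mice carried floxed alleles only (Arid1a Fl/Fl), and KO mice carried the same alleles with Cre recombinase driven by the albumin promoter (Arid1a Fl/Fl; Alb-cre). The factor C/EBPα was mapped in 2 WT and 2 KO libraries and histone H3 dimethylated at lysine 4 (H3K4me2) in 3 libraries of each genotype. ARID1A was mapped through its V5 tag in 1 library, made from V5-Arid1a mice. Of 21 samples, 11 have a peak list, and the other 10 are inputs not used here. The labels do not say whether replicates came from separate mice, so p-values measure only the spread between these libraries.

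Bile acids are made from cholesterol in hepatocytes, joined to taurine or glycine, pumped across the canalicular membrane into bile, and taken back from portal blood. Cyp7a1 encodes the rate-limiting enzyme of the classical route, Cyp8b1 the sterol hydroxylase that sets the share of cholic acid, and Cyp27a1 the mitochondrial enzyme of side chain oxidation. ARID1A is a DNA-binding subunit of SWI/SNF, a complex that remodels chromatin, C/EBPα is a leucine zipper transcription factor that maintains the hepatocyte state, and H3K4me2 marks promoters and enhancers. The comparison asks whether C/EBPα and H3K4me2 peaks near these genes differ between hepatocytes with and without Arid1a.

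The promoters of 3 genes are shown because C/EBPα peaks lay on them, at Cyp8b1 in the KO lists only, and at Abcc2 and Abcb11 at least in part in every C/EBPα list. The stretch before the second Slc10a1 start also met a peak in all 4 lists, but it lies inside the annotated gene body and is not printed. Each sequence is the 250 bases before the annotated start, in the direction of the gene, from RefSeq (GRCm38.p6, the assembly that mm10 names). Capitals mark an HNF4A element (CAAAGTCCA) and a TATA box (TATAAA) at Cyp8b1, and CCAAT boxes, read here as ATTGG on the other strand, at Abcc2.
Cyp8b1, chr9:121916306-121916555, minus strand: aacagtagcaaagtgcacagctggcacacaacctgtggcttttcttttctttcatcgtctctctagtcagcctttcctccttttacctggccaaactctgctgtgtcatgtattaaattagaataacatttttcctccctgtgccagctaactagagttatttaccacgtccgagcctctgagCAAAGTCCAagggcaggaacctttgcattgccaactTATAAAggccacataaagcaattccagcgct
Abcc2, chr19:43782058-43782307, plus strand: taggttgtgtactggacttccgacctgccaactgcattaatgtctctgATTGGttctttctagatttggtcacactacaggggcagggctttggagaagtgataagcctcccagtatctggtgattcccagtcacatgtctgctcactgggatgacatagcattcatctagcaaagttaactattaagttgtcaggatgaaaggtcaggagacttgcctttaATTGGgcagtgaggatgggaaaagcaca
Abcb11, chr2:69342617-69342866, minus strand: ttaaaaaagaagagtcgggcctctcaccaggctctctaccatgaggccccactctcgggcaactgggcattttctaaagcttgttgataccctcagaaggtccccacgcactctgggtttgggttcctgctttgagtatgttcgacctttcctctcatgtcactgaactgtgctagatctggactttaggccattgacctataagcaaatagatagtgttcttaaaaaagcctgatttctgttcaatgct
Promoter entries matched 7 of the 10 genes (8 entries, with 2 starts for Slc10a1). Of 8 motifs searched on both strands, the C/EBP element TTGCNNAA, present in 9.56% of 32851 promoters, was found at 1 entry, the second start of Slc10a1, as TTAAGCAA from base -75 to -68. HNF4A's CAAAGTCCA, present in 0.384% of promoters, was found at Cyp8b1 from base -67 to -59, and TATAAA, present in 12.4%, lay there from -31 to -26. Slco1b2 held the HNF1 motif GTTAAT (6.43% of promoters) at -66 to -61 and TATAAA at -234 and -227, with TATAAA on the other strand at -128 of the first Slc10a1 start. CCAAT (33.8% of promoters) stood at -202 and -28 in Abcc2, at -71 and -34 in Cyp27a1 and at -237 in Abcb4. The palindrome TTGCGCAA (0.164%), the LRH-1 element TCAAGGTCA (0.387%) and the bile acid receptor core GGTCANTGA (0.731%) were found in none of the 8, which says only that these letters are not in these windows.

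C/EBPα peaks from the 4 lists that overlapped by 1 bp or more were merged into regions. Such a region is kept when all 4 lists have a peak in it, lost when both WT lists do and neither KO list does, and gained for the reverse. These classes describe presence and absence and were not tested region by region, and fewer cells with a bound site cannot be told apart from less binding per cell. Around the 10 genes lay 74 regions, of which 44 (59.5%, exact 95% binomial interval 47.4 to 70.7) were kept, against 42.8% of all 27244 regions. Lost regions numbered 2 of the 53 that WT lists 1 and 2 share (3.77%, interval 0.46 to 13), against 19.3% over the genome. Gained regions numbered 2 of the 50 that KO lists 1 and 2 share (4%, interval 0.488 to 13.7), against 5.27% over the genome. The share of gained regions was near the genome's own, and that of lost regions was below it. Without WT list 1, 12 of 69 regions were lost (17.4%, against 30.1% over the genome), and without WT list 2, 6 of 50 were gained (12%, against 16.6%). The lost count was 4 with WT list 2 omitted, 5 with KO list 1 omitted and 6 with KO list 2 omitted. The intervals cover counting only, and neighbouring regions are not independent. Every one of the 10 genes had at least 1 kept region, as did 38.5% of all gene windows. The median number of kept regions was 4 for these genes and 0 for all protein-coding genes, with median windows of 71.6 and 67.2 kb.

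**Figure D1:**
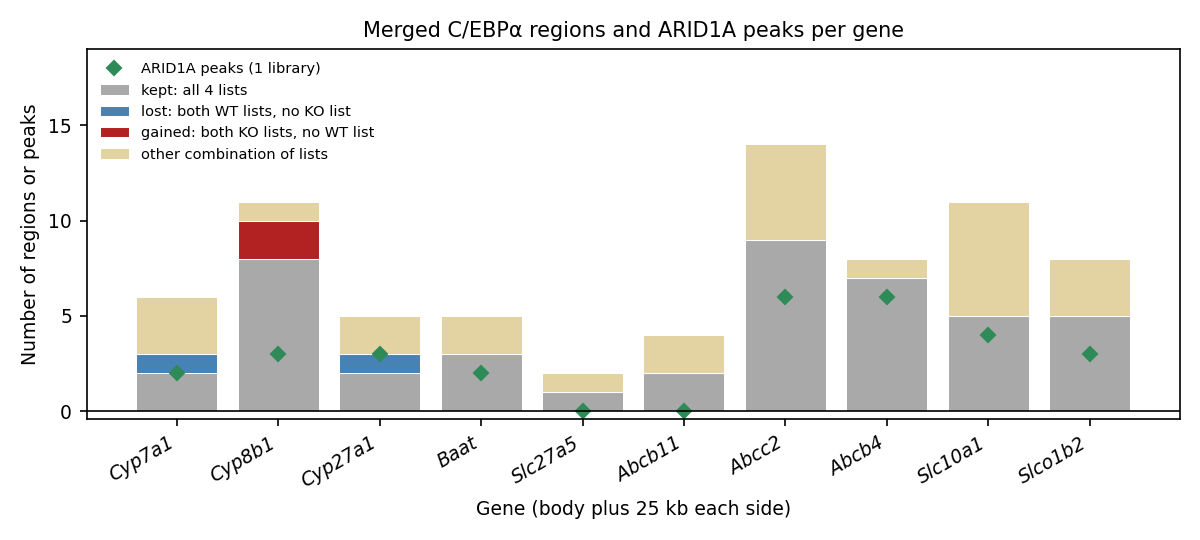
Stacked bars count the merged C/EBPα regions within each gene body and 25 kb on each side, by the combination of lists that hold a peak, and green diamonds count ARID1A peaks in the single V5 library. Lost regions (blue) stand at Cyp7a1 and Cyp27a1 only, and both gained regions (red) at Cyp8b1, among 74 regions in all.

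The remaining 26 regions were held by other combinations of lists. A single list held 13 of them (17.6% of the 74), and for 10 of the 13 that list was WT 2, the longest of the 4 C/EBPα lists with 23646 peaks. Over the genome 23.9% of regions were in 1 list only and 14.2% in WT 2 only, close to the 13.5% found here.

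Cyp7a1 (gene body chr4:6265612-6275632) had 6 C/EBPα regions, of which 2 were kept and 1 was lost. The lost region, chr4:6262772-6263167, lies 2445 bp beyond the low-coordinate end of the gene body. Its peaks were 373 and 396 bp wide in WT lists 1 and 2, and KO lists 1 and 2 had none. H3K4me2 peaks covered all 396 bp of that region in the 3 WT lists and 20, 135 and 389 bp of it in KO lists 1, 2 and 3, and ARID1A had no peak there. The wider of the kept regions, chr4:6278441-6278858, lies 2809 bp beyond the high-coordinate end, with peaks of 370 and 314 bp in WT and 418 and 370 bp in KO. The other, chr4:6257997-6258395, measured 342 and 392 bp in WT and 319 and 334 bp in KO, and both kept regions carried an ARID1A peak. At the gene's ends C/EBPα was seen in some lists only. The region chr4:6275491-6275986 over the high-coordinate end had a peak in WT list 2 (306 bp) and KO list 1 (496 bp). The region chr4:6265622-6265927, just inside the low-coordinate end, had one in WT list 2 alone (306 bp). The annotation used here gives no strand for this gene, so its start is not assigned to an end. H3K4me2 had a peak at the high-coordinate end in all 6 lists.

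Cyp8b1 (chr9:121914356-121916305, minus strand) had the most kept regions of the 3 synthesis genes, 8 of 11, and both gained regions. One gained region, chr9:121916153-121916480, lies over the annotated start and takes in 175 of the 250 promoter bases printed above. Its peaks, 303 and 324 bp wide in KO lists 1 and 2 (width percentiles 10.7 and 25.6), were missing from both WT lists. H3K4me2 had peaks across it in 3 WT and 2 KO lists, and ARID1A had none. The other gained region, chr9:121889932-121890467, lies 23889 bp downstream of the gene body with KO peaks of 463 and 477 bp, and H3K4me2 there was found in 2 WT lists and 1 KO list. The kept regions formed a group 7024 to 10313 bp upstream, another nearer at 3955 bp upstream, and a group of 4 from 8362 to 11745 bp downstream that lies inside the neighbouring gene Ackr2. The widest kept region, chr9:121923329-121924277, had peaks summing to 735 and 904 bp in WT and 713 and 935 bp in KO, with an ARID1A peak. At chr9:121920260-121920715 the C/EBPα peaks were 343 and 330 bp in WT and 447 and 449 bp in KO. H3K4me2 peaks covered 456, 327 and 146 of the 456 bp of that region in WT lists 1, 2 and 3, and 0 bp in each KO list. Of 40 C/EBPα regions near the 10 genes with H3K4me2 in all 3 WT lists, this was the 1 with H3K4me2 in no KO list, against 2.75% of such regions over the genome.

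Cyp27a1 (chr1:74713148-74737897, plus strand) had 5 regions, 2 kept and 1 lost. The lost region, chr1:74750653-74751297, lies 12756 bp downstream. Its peaks were 604 and 494 bp wide in WT lists 1 and 2 and absent from both KO lists, H3K4me2 was present in 2 WT and 0 KO lists, and an ARID1A peak lay on it. Of the 25 regions near the 10 genes where ARID1A coincided with C/EBPα in WT lists 1 and 2, this was the only lost one. Over the genome 194 of 3991 such regions were lost. The widest kept region, chr1:74712658-74713589, reaches over the annotated start in WT list 2 alone. In the other 3 lists its peak ended before the 250 bases upstream of the start. Peaks measured 472 and 932 bp in WT and 509 and 439 bp in KO, so the WT range overlapped the KO range. Next to it, chr1:74714019-74715116 had peaks of 933 and 563 bp in KO, 408 bp in WT list 2 and none in WT list 1. The other kept region, 13983 bp upstream inside Ttll4, had widths of 336 and 379 bp in WT and 380 and 324 bp in KO.

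**Figure D2:**
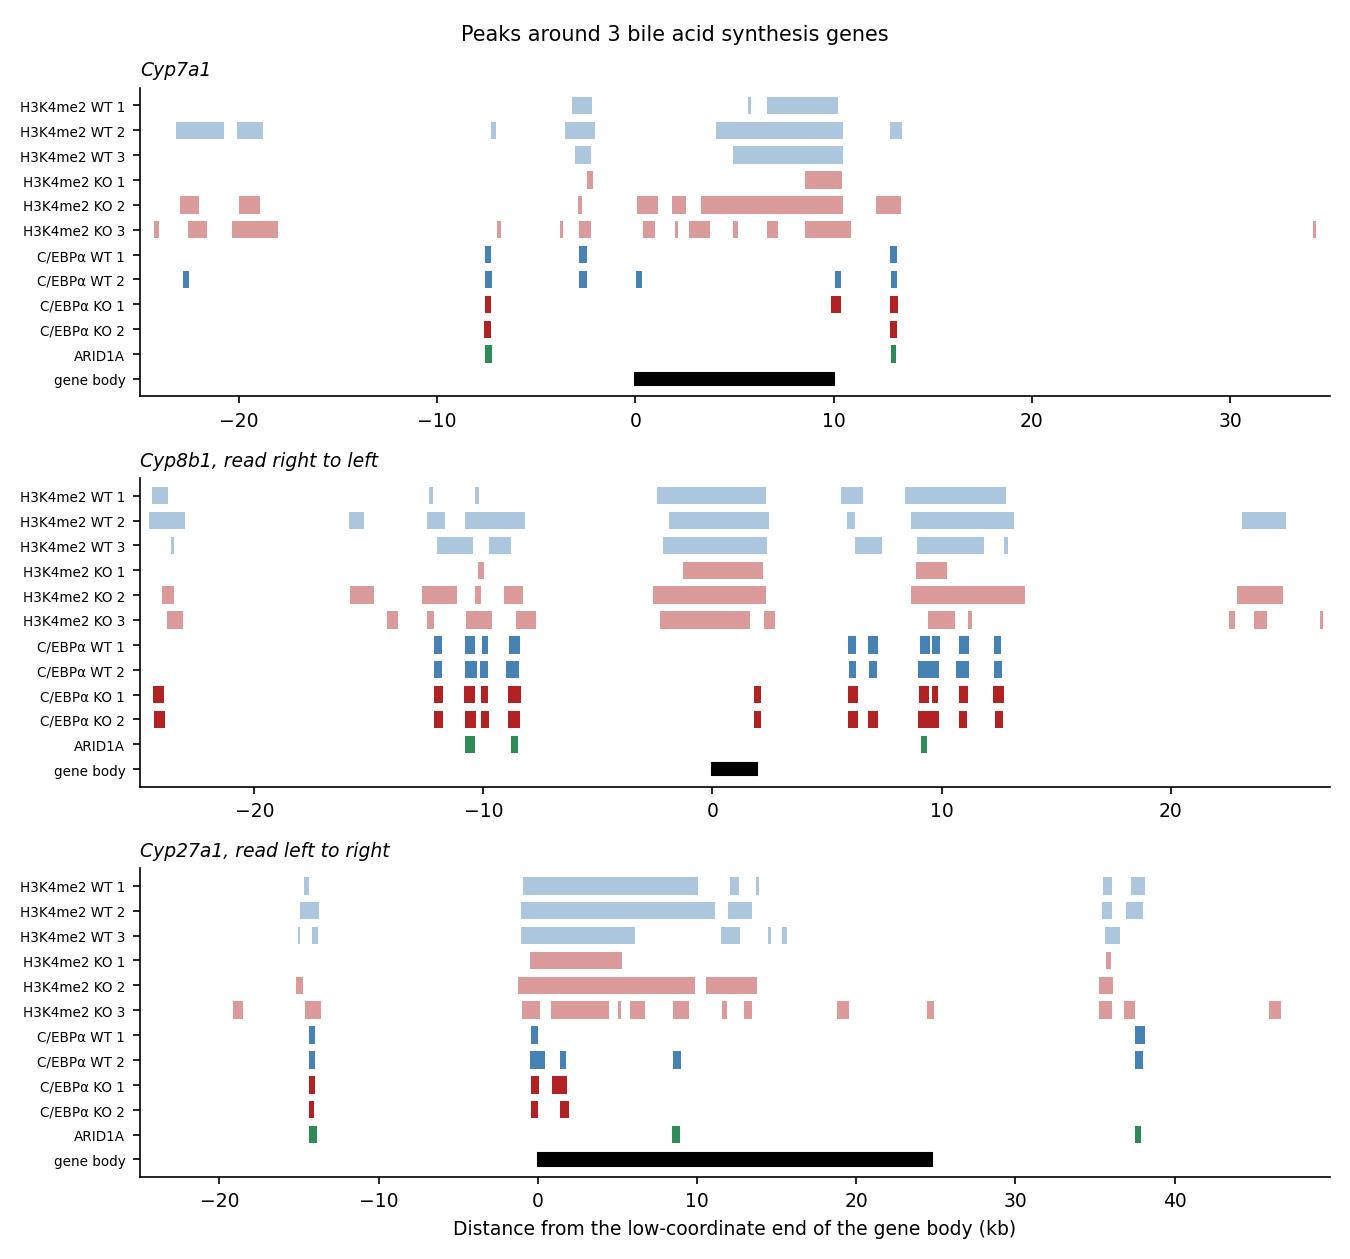
Peaks around Cyp7a1, Cyp8b1 and Cyp27a1 in each list (WT blue, KO red, ARID1A green, H3K4me2 in paler shades) are drawn to scale against distance in kb from the low-coordinate end of the gene body (black). The lost C/EBPα regions stand 2445 bp below the Cyp7a1 body and 12756 bp above the Cyp27a1 body, and 1 of the gained regions lies over the Cyp8b1 start.

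The conjugation genes had no lost and no gained region. Baat, which encodes a bile acid conjugating enzyme, had 3 kept regions of 5. The one at chr4:49507120-49507560, within 1 kb of the high-coordinate gene end, measured 410 and 422 bp in WT and 416 and 362 bp in KO and carried an ARID1A peak. The widest, chr4:49485323-49486137, measured 483 and 790 bp in WT and 793 and 532 bp in KO, so the genotypes overlapped. Slc27a5 encodes the ligase that activates bile acids with coenzyme A. It had 1 kept region, chr7:13001583-13002053, 3391 bp beyond the high-coordinate end, with widths of 381 and 398 bp in WT and 471 and 346 bp in KO. A second region, inside the gene body at chr7:12993161-12993546, had peaks of 383 and 369 bp in WT, 289 bp in KO list 2 and none in KO list 1. No ARID1A peak was listed in its window.

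The canalicular exporters had no lost and no gained region. Abcb11 encodes the bile salt export pump, and 2 of its 4 regions were kept. The region at its start, chr2:69342559-69343200, measured 584 and 449 bp in WT and 451 and 583 bp in KO. Peaks covered all 250 promoter bases printed above in WT list 1 and KO list 2, 115 of them in WT list 2 and 159 in KO list 1. In WT list 2 and KO list 1 the peak did not reach the start itself. A second kept region 873 bp inside the gene, chr2:69341274-69341743, measured 278 and 359 bp in WT and 401 and 427 bp in KO. The KO widths were above both WT widths here, but not in the region over the start. A region 11156 bp downstream, inside G6pc2, was held by both WT lists and KO list 2.

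Abcc2, the exporter of conjugated organic anions and bilirubin glucuronides, had the most regions of the 10 genes, 14, of which 9 were kept. The region over the start, chr19:43781962-43782596, covers all 250 printed bases in each of the 4 lists and measured 579 and 541 bp in WT and 582 and 612 bp in KO. The widest, chr19:43779613-43781123, lies 1185 bp upstream with 987 and 1018 bp in WT and 1000 and 1495 bp in KO. Another wide one 13863 bp upstream, inside Cutc, was nearly the same length in every list, at 930 and 919 bp in WT and 915 and 941 bp in KO. Abcb4, the phospholipid flippase of bile, had 7 kept regions of 8 and none over its start. An ARID1A peak lay on 6 of the 7. The widest kept region of Abcb4, chr5:8872969-8873934, lies 19680 bp upstream and measured 748 and 807 bp in WT and 933 and 839 bp in KO.

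**Figure D3:**
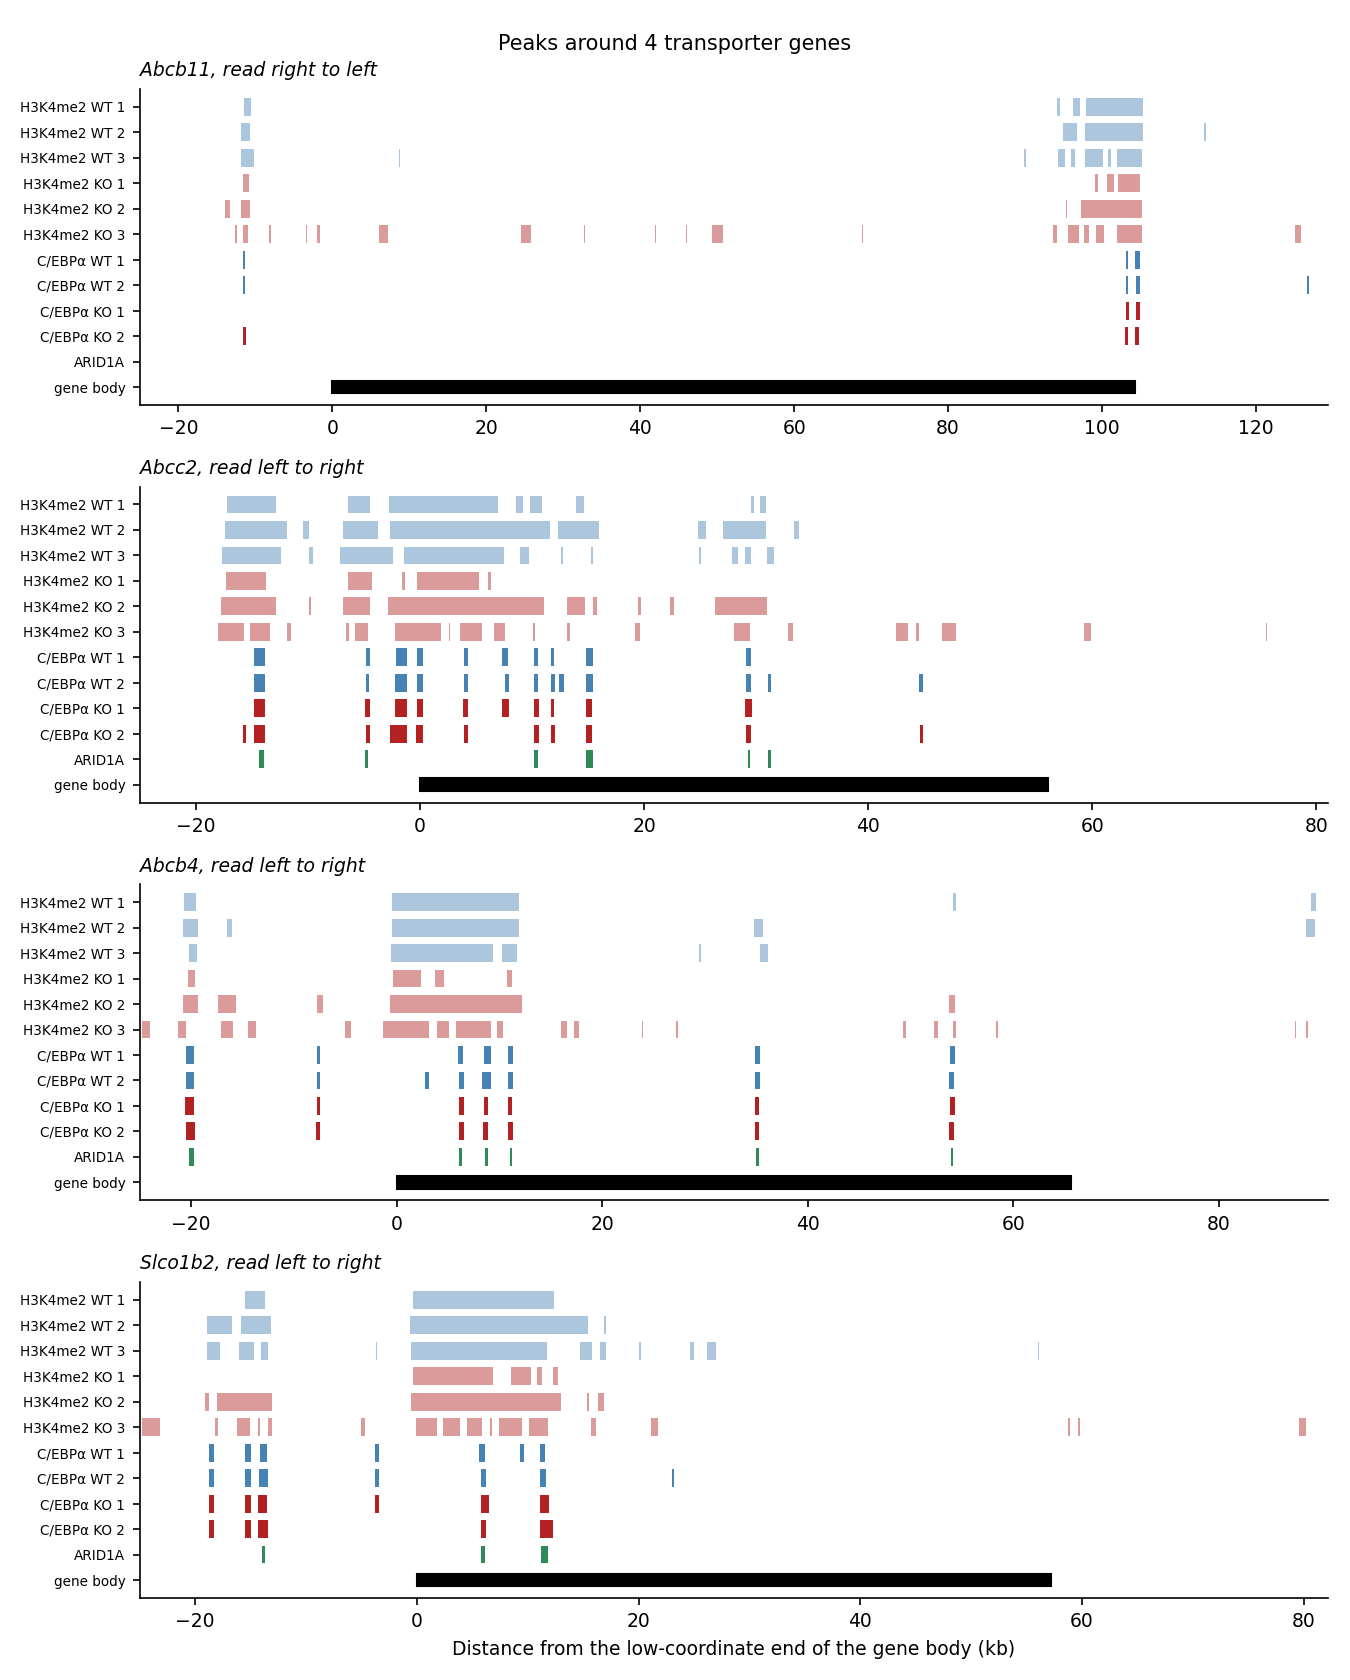
Peaks around Abcb11, Abcc2, Abcb4 and Slco1b2 are drawn for each list against distance in kb from the low-coordinate gene end, with the colours of the synthesis gene map. C/EBPα peaks of the 4 lists line up in columns at the kept regions only. These are 2 of 4 at Abcb11, 9 of 14 at Abcc2, 7 of 8 at Abcb4 and 5 of 8 at Slco1b2. ARID1A peaks stand on 6 of the 7 kept Abcb4 regions and in none of the Abcb11 window.

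Among the uptake genes, Slc10a1 encodes the sodium-dependent bile acid importer of the basolateral membrane and Slco1b2 the organic anion importer. Slc10a1 had 11 regions, 5 of them kept. Of the other 6, 3 were held by WT list 2 and both KO lists, 2 by both WT lists and 1 KO list, and 1 by WT list 2 alone. The kept region over the second annotated start, chr12:80967794-80968395, measured 321 and 379 bp in WT and 485 and 565 bp in KO. The widest, chr12:80975920-80976660, lies 7215 bp upstream and measured 643 and 651 bp in WT and 636 and 741 bp in KO. Slco1b2 had 5 kept regions of 8 and no region within 1 kb of its gene ends. By the mean peak width over the 4 lists its widest was chr6:141615148-141616033, which lies 13419 bp upstream with 700 and 816 bp in WT and 818 and 883 bp in KO.

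Widths of the 44 kept regions were compared between genotypes with limma on log2 width over all 11664 kept regions, a test added after the data were seen. No region passed at an adjusted p of 0.05 (0% of all kept regions), with 1164 regions, 4 of them near these genes, under an unadjusted 0.05. The largest difference was at Abcb4, chr5:8901959-8902822, 8238 bp after the start. Peaks there were 732 and 848 bp in WT and 406 and 400 bp in KO, a log2 difference of -0.97 (SE 0.14, limma adjusted p = 0.147). At Slco1b2, chr6:141640535-141641691, 11017 bp after the start, peaks of 495 and 584 bp in WT stood against 853 and 1140 bp in KO, a difference of 0.88 (SE 0.19, limma adjusted p = 0.26). The region at the second Slc10a1 start differed by 0.59 (SE 0.16, limma adjusted p = 0.356), and the Cyp8b1 region without H3K4me2 in KO by 0.41 (SE 0.13, limma adjusted p = 0.427). These 4 are among 17 of the 44 regions (38.6%) in which WT and KO widths did not overlap, against 43.8% of all kept regions. The median log2 ratio of KO to WT width was 0.05 near the 10 genes and 0.06 over all kept regions, with 29 of 44 wider in KO and 13 narrower, beside 6996 wider and 4637 narrower of all 11664.

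**Figure D4:**
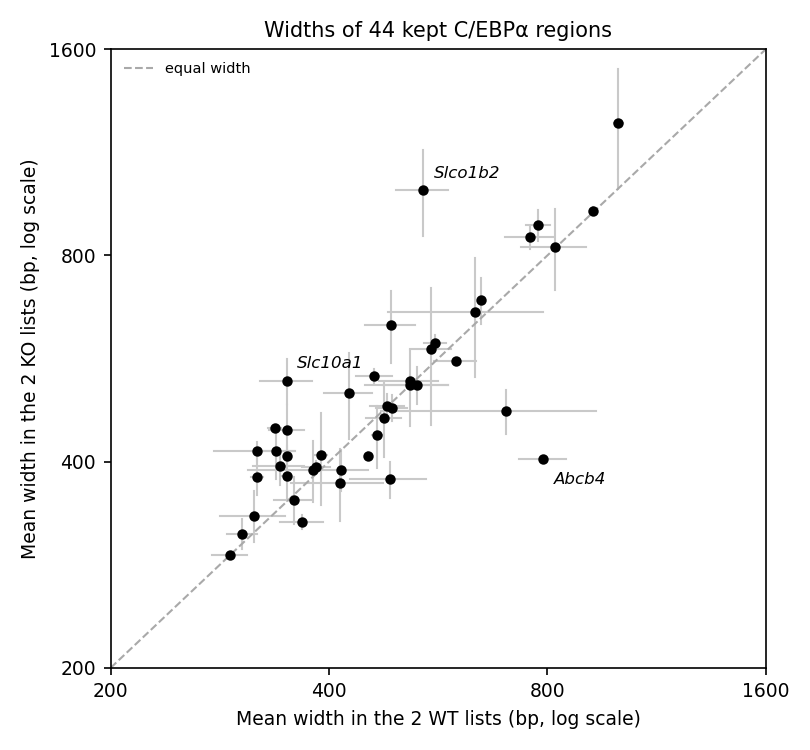
Each point is 1 of the 44 kept C/EBPα regions, at its mean peak width in the WT lists and in the KO lists (bp, log axes), and grey lines run between the 2 lists of a genotype. Most points lie near the dashed line of equal width, and the 3 named ones are farthest from it, at Abcb4 (narrower in KO), Slco1b2 and Slc10a1 (wider).

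The total length in C/EBPα peaks within each gene window gives 1 value per library. It did not overlap between genotypes in 4 of the 10 genes, against 50.1% of all 11520 windows tested, so the count is not a result about these genes. In Cyp8b1 it was 3795 and 4284 bp in WT and 4530 and 5048 bp in KO. The other 3 had less in KO: Baat measured 1716 and 2157 bp in WT and 1610 and 1280 bp in KO. Slc27a5 measured 764 and 767 bp in WT and 471 and 635 bp in KO. Abcb4 measured 3679 and 4178 bp in WT and 3478 and 3444 bp in KO. The exact permutation p was 0.333 for each, the smallest that 2 against 2 libraries allow. In limma on log2(bp + 1000) across 11520 gene windows, none of the 10 genes passed, as none of all windows did (0% called, 2287 under an unadjusted p of 0.05). The log2 difference from WT to KO was 0.20 (SE 0.10) in Cyp8b1, -0.26 (SE 0.13) in Baat, -0.19 (SE 0.09) in Slc27a5 and -0.14 (SE 0.08) in Abcb4, with limma adjusted p of 0.411, 0.416, 0.394 and 0.5. Cyp7a1 had the most negative value, -0.36 (SE 0.26, limma adjusted p = 0.559), from 1085 and 2017 bp in WT and 1233 and 704 bp in KO, which overlap. Cyp27a1 stood at -0.23, Abcb11 at -0.11, Abcc2 at 0.02, Slco1b2 at 0.05 and Slc10a1 at 0.16, all with overlapping libraries.

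**Figure D5:**
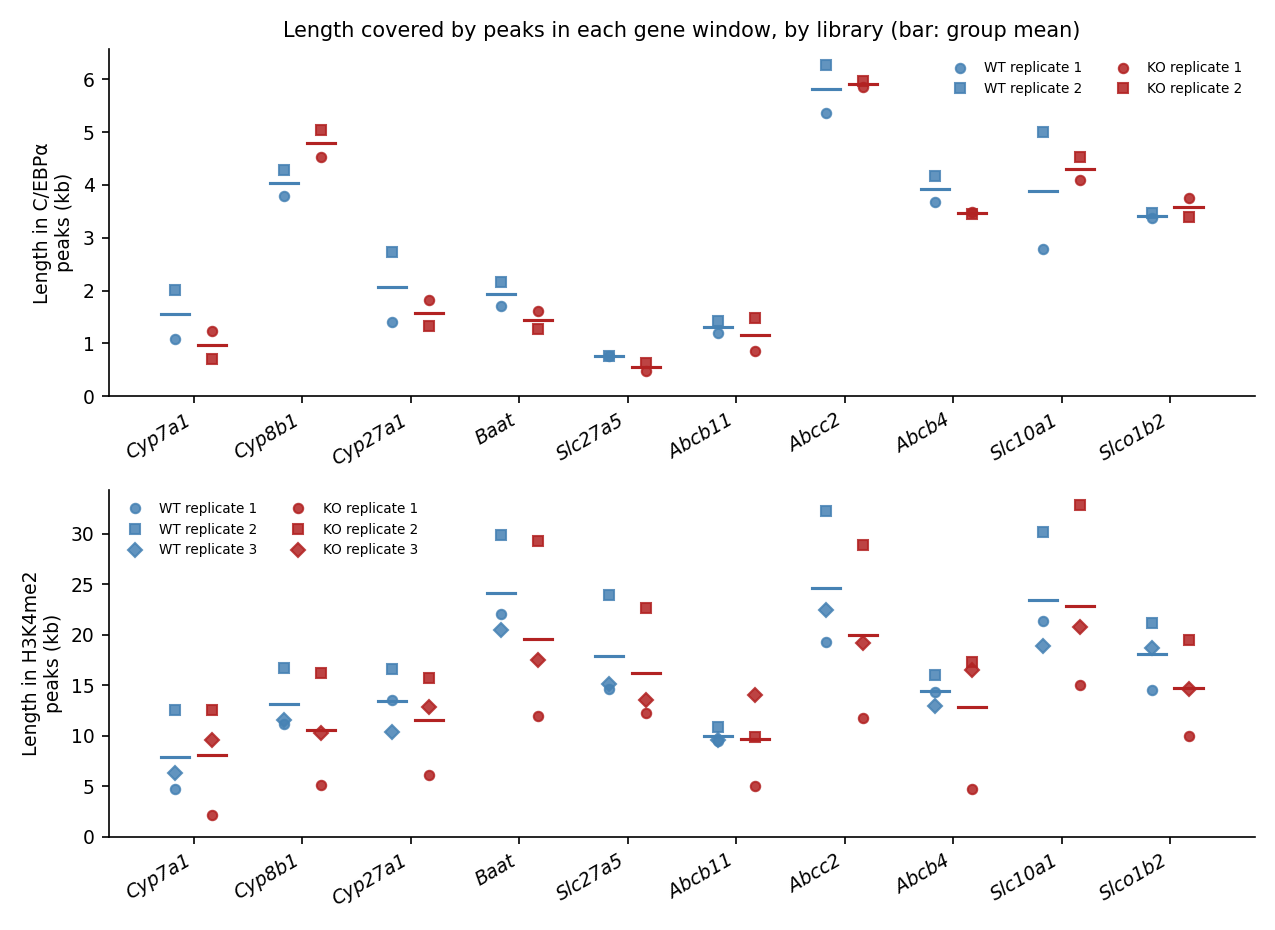
Points give the length in peaks (kb) within each gene window for every library, C/EBPα above and H3K4me2 below, with WT blue, KO red and horizontal bars at group means. C/EBPα values do not overlap between genotypes in Cyp8b1, Baat, Slc27a5 and Abcb4, as in 50.1% of all windows tested, and in the H3K4me2 panel KO replicate 1 is the lowest library for all 10 genes.

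H3K4me2 peaks stood at a gene end of all 10 genes in all 6 lists, against 50.8% of all protein-coding genes, and at the annotated start in each of the 7 genes with a known strand. The 10 windows hold 872 bins of 1 kb, and a bin is taken as marked when peaks cover 500 bp of it or more. Of 111 bins marked in all 3 WT lists 0 were marked in no KO list, against 2.01% over the genome. Of 61 bins marked in all 3 KO lists 0 were marked in no WT list, against 0.175% over the genome, and 59 bins were marked in every list. Without KO list 2 the first count was 19, without WT list 1 it was 4 and without WT list 3 it was 2. Without KO list 1 the second was 6. Shares over the genome were not computed with a list left out, so these counts cannot be read as particular to these genes. Total H3K4me2 length overlapped between genotypes in every gene, as it did in all but 0.865% of windows tested. KO list 1 was the lowest library for all 10 genes, and it is also the shortest of the 6 lists, with 24908 peaks over 28 Mb against 48.4 to 102 Mb in the others. WT list 2 was the highest for 7 genes, KO list 2 for 2 and KO list 3 for 1. The part of list length in these values was not tested.

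Group means of total H3K4me2 length differed by less than the KO spread in every gene. Cyp8b1 had 11144, 16727 and 11560 bp in WT and 5058, 16209 and 10243 bp in KO, means of 13143.7 ± 3110.2 and 10503.3 ± 5580.1 (SD, n = 3; exact permutation p = 0.4, with 0.1 the smallest possible). Cyp7a1 had 4736, 12521 and 6343 bp in WT and 2153, 12491 and 9603 bp in KO, so its means of 7866.7 ± 4110.1 and 8082.3 ± 5334.1 (SD, n = 3) nearly matched (exact permutation p = 1). Fitted log2 differences from WT to KO ran from -0.40 (SE 0.49) in Cyp8b1 to -0.08 (SE 0.46) in Slc10a1. They were negative in all 10 genes, but in 6 of them the sign turned in at least 1 alternative setting. The median over all windows tested was -0.01, and the share of all windows with a negative value was not computed. Limma called none of the 17575 windows tested (0%, 48 under an unadjusted p of 0.05), and the adjusted p was 1 for each of the 10. Same-numbered WT and KO libraries were also compared as pairs, which rests on the replicate numbers alone. They deviated together for numbers 1 and 2 (r = 0.53 and 0.55). Number 3 did not clearly pair (r = 0.15), as WT list 3 correlated more with KO list 1 (r = 0.28). KO lay below WT in all 3 pairs in 5 of the 10 genes (Cyp8b1, Baat, Slc27a5, Abcc2 and Slco1b2), against 10.8% of all windows tested. It lay above WT in all 3 pairs in 0, against 2.5%. In pair 1 KO was below WT for all 10 genes, as KO list 1 was the lowest library for each. In pair 3 the 10 windows held 0.145% of the length covered by the KO list and 0.283% of that covered by the WT list. The part of such list differences in the pair counts was not tested. With the replicate number as a block, the limma adjusted p was still 1 for each of the 10 genes, with Cyp8b1 at -0.40 (SE 0.37).

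ARID1A had 29 peaks around 8 of the 10 genes, and none around Slc27a5 and Abcb11. Of all gene windows 20.2% held at least 1 ARID1A peak, and the median was 3 peaks for these genes and 0 for all. Abcc2 and Abcb4 had 6 each, Slc10a1 4, Cyp8b1, Cyp27a1 and Slco1b2 3 each, and Cyp7a1 and Baat 2 each. The widest was 654 bp inside Slco1b2 (chr6:141640605-141641258, percentile 98.8 of width in its list), on the C/EBPα region that was wider in KO. The next, 577 bp inside Abcc2 (chr19:43797150-43797726, percentile 96.9), lay on a kept region 14819 bp after the start, with C/EBPα widths of 558 and 638 bp in WT and 562 and 561 bp in KO. One peak was near a gene end, in Baat (chr4:49507164-49507393, 230 bp). Of the 29 peaks, 25 (86.2%, exact 95% binomial interval 68.3 to 96.1) fell on C/EBPα regions that WT lists 1 and 2 share, against 70.6% of all 5726 ARID1A peaks, and all 29 on a region of at least 1 C/EBPα list, as did 82.9% of all ARID1A peaks. Kept regions carried an ARID1A peak in 24 of 44 cases (54.5%), against 30.9% of all kept regions. This map is 1 library without a replicate.

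Other genes of bile acid metabolism, 32 taken from a fixed list, had 187 regions. Of these regions 103 were kept, against 42.8% over the genome. Lost regions were 10 of 129 (7.75%) and gained regions 3 of 121 (2.48%), beside 19.3% and 5.27% over the genome. Of the 32 genes, 29 had a kept region, against 38.5% of all gene windows, and 23 had an ARID1A peak, against 20.2%. For covered length 0 of them passed limma, as 0% of all windows tested did. Lost regions lay at 8 genes. Abcc3, a basolateral exporter, had 2, at chr11:94362109-94362606 (467 and 451 bp in WT) and chr11:94392907-94393253 (347 and 318 bp). Cyp39a1, an oxysterol hydroxylase, also had 2, at chr17:43644154-43644796 (606 and 442 bp) and chr17:43684593-43685113 (521 and 410 bp). Cyp7b1, the oxysterol hydroxylase of the alternative route, lost the region chr3:18162734-18163086 (313 and 353 bp). Single lost regions also lay at Abcb1a and Abcc4, transporters of the same superfamily as the canalicular pumps, at Scp2, a peroxisomal sterol carrier, at Slco2b1, an organic anion transporter, and at Hnf4a, a nuclear receptor of hepatocytes with 9 kept regions. None of these 10 lost regions had an ARID1A peak, as was so for most lost regions of the genome, of which 194 of 3189 (6.08%) had one.

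Gained regions lay at Nr0b2, which encodes the repressor SHP of bile acid synthesis, and at Slco1a4, an organic anion importer. The Nr0b2 region, chr4:133557123-133557845, lies 437 bp from the gene body, measured 676 and 723 bp in KO, carried an ARID1A peak, and had H3K4me2 in 3 WT lists and 1 KO list. The Slco1a4 regions, chr6:141868759-141869150 and chr6:141875751-141876295, measured 392 and 309 bp and 461 and 532 bp in KO. For total C/EBPα length the log2 difference was 0.58 (SE 0.07, limma adjusted p = 0.0873) in Slco1a4 and -1.12 (SE 0.25, limma adjusted p = 0.126) in Abcc3.

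The lists differ in length, and no source used here gives their read depths. Absence of a region from a list therefore shows only that no peak was called or retained at that place. C/EBPα lists held 16178 to 23646 peaks and H3K4me2 lists 24908 (KO list 1) to 175797 (KO list 3). KO list 3 stood apart, as the next longest H3K4me2 list, WT list 2, had 61246 peaks. Its median peak width was 429 bp, against 634 to 918 bp in the other H3K4me2 lists. H3K4me2 counts that require presence in, or absence from, every KO list include this list. All 6 hepatocyte markers (Alb, Ttr, Apoa1, Apob, Serpinc1, Fgb) carried gene-end H3K4me2 in every list, and 5 of them C/EBPα in all 4. Among 5 markers each, H3K4me2 stood in all 6 lists at 1 for bile duct (Epcam), 1 for stellate (Reln), 1 for lymphocyte (Cd79a), 0 for macrophage and 0 for endothelial cells, and none of these 25 genes had C/EBPα in all 4. Removal of Arid1a itself cannot be checked in peak lists, so genotypes are as labelled.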

How the data were processed

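ChIP-seq peak lists were used for C/EBPα (2 WT, 2 KO), H3K4me2 (3 WT, 3 KO) and V5-tagged ARID1A (1 library). The submitters' processing notes name MACS2 2.0.10.20131216, Bowtie2 2.2.3, HOMER, Picard and the build mm10, with no role given. The C/EBPα and V5 lists deposited by the authors give positions only, and hold 40 to 40.1% of the highest peak number in each. The H3K4me2 lists deposited by the authors also give a score, a fold over background as a ratio, and each peak's p and q as −log10 values. Those depend on the depth of their library, which is unknown, so they only rank or filter peaks in alternatives. Per the labels, C/EBPα and V5 libraries and H3K4me2 libraries were made with different kits (KAPA HTP, NEBNext) and sequenced on different instruments, so targets were compared only as overlaps.

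Windows of 25 kb around RefSeq gene bodies, merged regions, 1-kb bins and covered lengths were computed with Python 3.11.15, numpy 2.4.6, pandas 2.3.3 and scipy 1.17.1. Covered length was tested with limma 3.58.1 (R 4.3.3) on log2(bp + 1000), over windows with a peak in at least 2 C/EBPα or 3 H3K4me2 lists, with Benjamini-Hochberg adjustment and a threshold of 0.05. The fit was tested on simulated data with changes larger than any seen near these genes. That check does not cover changes of the size reported here. Tests are two-sided. Replicate numbers alone paired the H3K4me2 libraries. Same-numbered WT and KO libraries gave r = 0.53, 0.55 and 0.15 across gene windows, which are not independent replicates. WT 3 correlated more with KO 1 (r = 0.28) than with KO 3, so number 3 is not clearly a pair. The members and lists were chosen with earlier results of these data known. Named for each gene were every lost or gained region, the widest kept region, regions at a gene end and ARID1A peaks. Named from the wider list were genes with a lost or gained region. Further regions were picked with their values in view. Alternatives were windows of 10 and 50 kb, other overlaps, peak filters, pseudocounts and normalization, a replicate block, and each library left out.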

Additional observations from a re-analysis of the deposited data

How the results depend on the processing

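Counts of lost and gained regions near the 10 genes are small and moved with the lists used. Lost regions numbered 1 of 40 with windows of 10 kb (2.5%, genome 19.3%). With only peaks of 395 bp (the pooled median) or wider they numbered 1 of 26 (3.85%, genome 17.7%). Gained ones numbered 1 of 38 with 10 kb windows (2.63%, genome 5.27%) and 4 of 50 with the 16178 widest peaks of each list (8%, genome 11.5%). They numbered 6 of 32 (18.8%, against 12.1% over the genome) with the width filter, which left 22 kept regions. Leaving out 1 library can only add to the lost or gained regions, and gave lost counts from 4 without WT 2 (7.27%, genome 22.1%), through 5 without KO 1 (9.43%, genome 22.8%) and 6 without KO 2 (11.3%, genome 25.8%), to 12 without WT 1 (17.4%, genome 30.1%). Gained regions ran from 2 to 6 (12% without WT 2, genome 16.6%) and kept ones from 44 to 48. The lost share stayed below the genome's in each of these alternatives. H3K4me2 bins lost went from 0 to 2 with a 250 bp rule, and between 0 and 19 on leaving out 1 library (4 without WT 1, 2 without WT 3, 19 without KO 2). Gained bins ran from 0 to 6 (6 without KO 1). Kept bins fell to 23 with −log10 q of at least 2. Genome shares of bins were not computed under these alternatives, so the bin counts cannot be read as particular to these genes. Of the 29 ARID1A peaks near the 10 genes, 100% lay on a region of any C/EBPα list, against 82.9% of all.

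No covered length or kept width near these genes passed in any alternative, replicate blocks included (0 of 10 genes and 0 of 44 regions). Log2 differences changed sign in at least 1 alternative for 8 genes in C/EBPα, all but Cyp8b1 and Abcb4, and for 6 in H3K4me2. Over all windows the C/EBPα fit called 884 with wide peaks only (485 higher, 399 lower), 989 with a 200 bp pseudocount (264 higher, 725 lower) and 492 without the filter (130 higher, 362 lower), against 0, among them Abcc3 (log2 -1.41, adjusted p = 0.039) in the first and Slco1a4 (0.89 and 0.58, limma adjusted p = 0.0429 and 0.0436) in the others. The H3K4me2 fit called 3 with equal numbers of strongest peaks, 1 with quantile normalization, 4 with the replicate block and 2 without KO 3, and left the 10 genes uncalled. Its median log2 difference over all windows, -0.01, moved to -0.30 with equal numbers of strongest peaks, -0.51 with −log10 q of at least 2 and 0.31 without KO 1. With −log10 q of at least 2 the H3K4me2 values of the 10 genes ran from -1.39 (Abcc2) to -0.64 (Slc27a5). The limma adjusted p was 0.814 for each. The C/EBPα numbers did not pair (r = 0.03). With 2 libraries per genotype, deviations from the group mean give both same-numbered pairs the same r, so this is 1 value. The replicate block left 0 C/EBPα windows called.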
